A study of Mus musculus with 8 samples.

Results

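Dorsoventral patterning transcription factors assign dorsal and ventral identity to the vertebrate eye. The genes followed here are 7, chosen by name: the dorsal T-box genes Tbx2, Tbx3 and Tbx5, the ventral genes Vax1, Vax2 and Pax2, and Foxd1, a forkhead gene of the temporal retina. They were found by symbol among the 16096 genes of the deposited table. Of the 7, 6 were found and all 6 were tested, and Pax2 was not analysed here. RNA was taken from the dissected peripheral part of the retina, from C57BL/6 embryos of embryonic day 16.5. The 4 labelled-cKO libraries carry Pax6alpha-Cre with Ezh2fl/null, that is a floxed and a null allele of Ezh2. The 4 labelled-control libraries carry Pax6alpha-Cre with Ezh2fl/+, a floxed and a wild-type allele. Both groups therefore carry Cre and the floxed allele. The Pax6 alpha enhancer drives Cre in the distal retina, mainly on its nasal and temporal sides, so a sample can also hold cells without recombination. Ezh2 encodes the histone methyltransferase of Polycomb repressive complex 2, and the comparison asks which transcripts differ between these genotypes.

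In the early optic cup, BMP ligands made dorsally promote T-box genes, whereas hedgehog signals from the ventral midline promote Vax and Pax2 expression in the ventral cup and optic stalk. The dorsal and ventral factors restrain each other, and downstream of them ephrin-B ligands, EphB receptors and retinoic acid enzymes are laid out in bands along the axis. Foxd1 plays the matching part for the temporal side of the nasotemporal axis, with ephrin-A ligands and EphA receptors downstream. Many developmental regulators of this kind have CG-rich start regions, which Polycomb complexes occupy in embryonic cells.

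Total counts per library ran from 13994825 to 18391647. By the counts of Xist and of Y-linked genes, replicates 2 and 3 of the labelled-cKO group were female and the other 6 libraries were male. Lens crystallin counts stood apart in labelled-cKO replicate 2 and labelled-control replicate 1. The whole-gene level of Ezh2 was 276, 251, 255 and 220 CPM in the labelled-cKO libraries and 235, 230, 197 and 207 CPM in the labelled-control libraries (CPM is the count scaled to a normalized library size common to all libraries). It was thus not lower in the labelled-cKO libraries (log2 fold change 0.21, 95% limits 0.06 to 0.36, edgeR adjusted p = 0.0701; DESeq2 adjusted p = 0.0422, and 0.26 without labelled-cKO replicate 4 with edgeR adjusted p = 0.0129). The sources used here do not name the deleted exons, so this count does not check the deletion. Each direction below is that of the labels. The retinal progenitor gene Pax6 was abundant, at 681 ± 6.55 CPM in labelled-cKO and 729 ± 16.3 CPM in labelled-control libraries (SD, n = 4 each). Nothing in the labels ties a library to an animal or litter, so the p-values below reflect only the spread between these libraries, whose sources the labels do not give.

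Start regions are shown for Vax1 and Foxd1, the 2 of the 6 tested factors matched in the table of windows used. Vax1 had the highest and Foxd1 the lowest log2 fold change of the 6. Tbx2, Tbx3, Tbx5 and Vax2 were not matched. Both come from RefSeq on build GRCm38.p6, as windows of 300 bases from 250 before to 50 after the annotated start, printed 5′ to 3′ on the gene's strand with each CG dinucleotide in capitals. The Vax1 window is chr19:59170348-59170647 on the minus strand, and the Foxd1 window is chr13:98353995-98354294 on the plus strand. In the GENCODE M21 annotation Vax1 starts at 59170056, so its window lies wholly upstream of that gene model. The Foxd1 window contains the GENCODE M21 start, 98354242.
Vax1: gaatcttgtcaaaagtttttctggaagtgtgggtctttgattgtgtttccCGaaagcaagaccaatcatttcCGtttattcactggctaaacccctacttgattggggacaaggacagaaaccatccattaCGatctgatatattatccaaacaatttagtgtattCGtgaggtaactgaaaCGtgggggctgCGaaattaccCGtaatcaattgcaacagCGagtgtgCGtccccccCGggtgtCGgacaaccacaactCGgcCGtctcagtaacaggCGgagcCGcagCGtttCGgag
Foxd1: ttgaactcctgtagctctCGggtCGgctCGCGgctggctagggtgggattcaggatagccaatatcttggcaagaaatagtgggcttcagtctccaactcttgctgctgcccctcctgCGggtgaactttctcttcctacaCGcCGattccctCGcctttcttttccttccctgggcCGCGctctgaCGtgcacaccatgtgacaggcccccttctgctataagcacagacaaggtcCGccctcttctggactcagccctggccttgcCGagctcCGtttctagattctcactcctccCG
The Vax1 window holds 17 CG dinucleotides and the Foxd1 window 15, against a median of 7 over 32817 windows of the same length. At least as many as in Vax1 occur in 31.4% of those windows and at least as many as in Foxd1 in 34.6%. The Vax1 window is less rich in G and C, at 47.7%, than the Foxd1 window, at 57.7%. These are descriptions of sequence and say nothing of occupancy in these cells.

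The dorsal and ventral groups did not move as blocks. A dorsal and a ventral gene, Tbx5 and Vax1, were called higher in the labelled-cKO libraries, by 1.42-fold and 1.56-fold. The other 4 factors tested were not called. Genes were called at a Benjamini-Hochberg adjusted p under 0.05 over 15014 genes, where 11.8% of genes were called, 8.35% higher and 3.46% lower. Of the 6 factors, 2 were called higher and 0 lower. DESeq2 called 3 higher and 0 lower, where 7.26% of all genes it tested were higher and 3.47% lower. At an unadjusted edgeR p under 0.05 there were 3 higher factors and 2 lower factors, which were Vax2 and Foxd1, where 13.9% of all genes were higher and 10.2% lower. The median log2 fold change of the 6 was 0.15, against -0.01 over all genes tested. In bulk tissue, fewer cells of a region and less RNA per cell cannot be told apart, and the share of dorsal and ventral retina in each dissection was not measured.

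**Figure D1:**
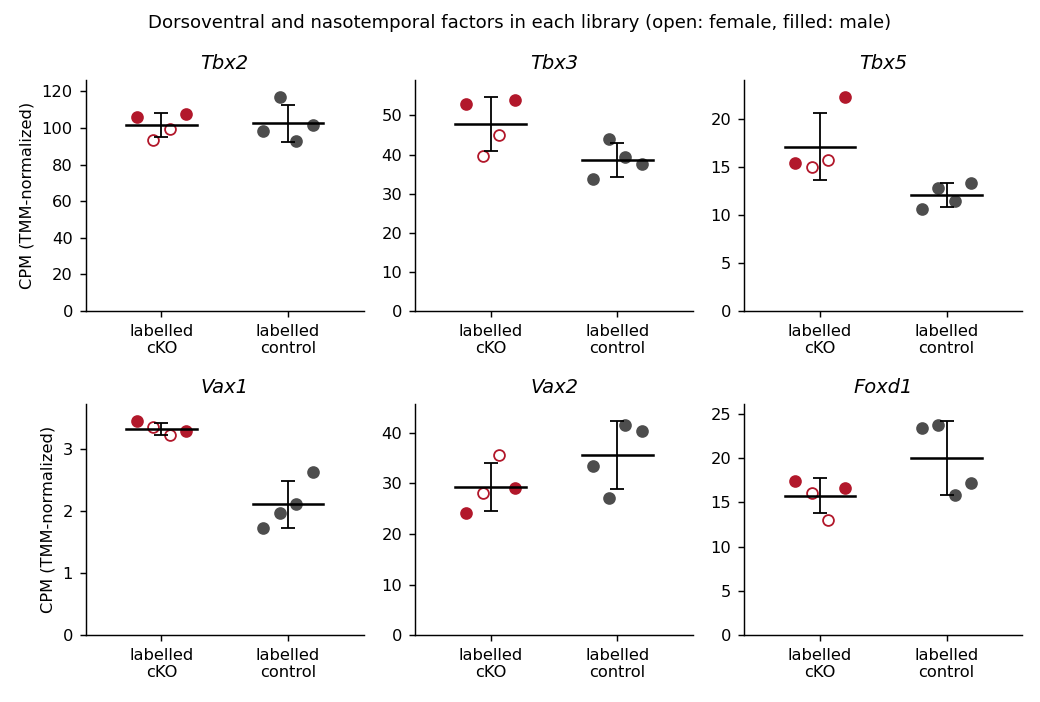
CPM of Tbx2, Tbx3, Tbx5, Vax1, Vax2 and Foxd1 in each library, labelled cKO on the left and labelled control on the right of each panel; lines are group means with SD bars (n = 4), open points female and filled points male embryos. The groups are separate for Tbx5 and Vax1 and overlap for the other 4 genes.

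Tbx5 (ENSMUSG00000018263, mm10 chromosome 5, 119832668 to 119885219, plus strand) is the most dorsally restricted T-box gene of the optic cup. Taking replicates 1 to 4 in turn, it stood at 15.4, 15.04, 15.7 and 22.3 CPM in labelled-cKO libraries and 10.6, 12.8, 11.4 and 13.4 CPM in labelled-control libraries. Every labelled-cKO library was above every labelled-control library, and such a separation was seen in 10.1% of all genes tested in this direction, in 6.21% in the other and in 16.3% in either. Replicate 4 of the labelled-cKO group lay well above the other 3, which were close together. The Tbx5 log2 fold change was 0.50 with an SE of 0.12 and 95% limits between 0.24 and 0.77 (edgeR adjusted p = 0.0155). A two-sided exact permutation test gave p = 0.0286, the smallest that 70 assignments allow. Without labelled-cKO replicate 4 it was 0.35 (edgeR adjusted p = 0.0226), and the call held in each of 17 alternatives (edgeR or DESeq2 adjusted p 0.00292 to 0.0483).

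Tbx3 (ENSMUSG00000018604, chromosome 5, 119670669 to 119684724, plus strand), a T-box repressor of the dorsal retina, lies 147.9 kb from Tbx5 with no other measured gene between them. Its levels were 53.0, 39.5, 44.9 and 54.0 CPM in labelled-cKO libraries and 33.7, 44.1, 39.4 and 37.6 CPM in labelled-control libraries. Of the labelled-cKO libraries, 3 were above all labelled controls, and female replicate 2 lay among them. The Tbx3 log2 fold change was 0.31 with an SE of 0.10 and 95% limits between 0.10 and 0.52, and it missed the threshold (edgeR adjusted p = 0.0556; exact permutation p = 0.0571). Both male labelled-cKO libraries were higher than both female ones, with means of 53.5 and 42.2 CPM. In the male libraries alone the fold change was 0.47 and passed (edgeR adjusted p = 0.00467), as it did in 6 of 17 alternatives, among them without labelled-cKO replicate 2 (0.39) and without labelled-control replicate 2 (0.38). Adjusted p spanned 0.00467 to 0.159 over the 17.

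Tbx2 (ENSMUSG00000000093, chromosome 11, 85832551 to 85841948, plus strand), which is expressed more broadly than Tbx5 in the dorsal cup, showed no detectable change. It had 106, 93.2, 99.6 and 108 CPM in labelled-cKO libraries against 98.3, 117, 92.9 and 102 CPM in labelled-control libraries. All labelled-cKO values lay within the range of the labelled controls. Its log2 fold change was -0.01 (SE 0.07, edgeR adjusted p = 0.943), with 95% limits of -0.16 to 0.13, and the sign turned with counts scaled by library size alone (0.0091) and in the male libraries (0.06), among 6 of 17 alternatives that include labelled-cKO replicate 2 (0.03) or labelled-control replicate 2 (0.06) left out. The 3 dorsal genes thus had estimates from -0.01 to 0.50, and neither the limits of Tbx2 nor those of Tbx5 contain the estimate of the other.

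Vax1 (ENSMUSG00000006270, chromosome 19, 59166187 to 59170056, minus strand) is a homeobox gene of the optic stalk and ventral cup. It was counted 64, 48, 49 and 53 times in labelled-cKO libraries and 23, 30, 30 and 47 times in labelled-control libraries, that is 3.44, 3.34, 3.21 and 3.28 CPM in labelled-cKO and 1.72, 1.97, 2.10 and 2.62 CPM in labelled-control libraries. The labelled-cKO values were nearly equal, and all were above the highest labelled control. The Vax1 log2 fold change was 0.64 with an SE of 0.16 and 95% limits between 0.30 and 0.98 (edgeR adjusted p = 0.0145; exact permutation p = 0.0286, the smallest possible). The call ended in 3 of 17 alternatives: with sex as a covariate (log2 0.66, adjusted p = 0.0605), in the male libraries (0.66, 0.0765) and without the pair of libraries with lens counts (0.56, 0.0790). Adjusted p spanned 0.00913 to 0.0790 over the 17.

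Vax2 (ENSMUSG00000034777, chromosome 6, 83711264 to 83738313, plus strand), the homeobox gene of the ventral neural retina and the close relative of Vax1, had the opposite sign. It stood at 24.2, 28.1, 35.6 and 29.2 CPM in labelled-cKO libraries and at 33.4, 27.1, 41.5 and 40.4 CPM in labelled-control libraries. The groups overlapped, with labelled-control replicate 2 below 3 labelled-cKO libraries. The Vax2 log2 fold change was -0.29 with an SE of 0.13 and 95% limits between -0.56 and -0.01 (edgeR adjusted p = 0.182; exact permutation p = 0.2). Without labelled-control replicate 2 it was -0.40 and passed (edgeR adjusted p = 0.0373), without labelled-cKO replicate 1 it was -0.20, and the 17 alternatives spanned adjusted p values of 0.0373 to 0.421. The 95% limits of Vax1 and Vax2 do not overlap, and the ratio of Vax1 to Vax2 by FPKM was 0.0701 ± 0.0129 in labelled-cKO and 0.0362 ± 0.00639 in labelled-control libraries (SD, n = 4 each). FPKM is the authors' count scaled by gene length and library size.

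Foxd1 (ENSMUSG00000078302, chromosome 13, 98354242 to 98359305, plus strand) marks the temporal retina and, outside the retina, mesenchyme. It was at 17.5, 16.01, 12.99 and 16.6 CPM in labelled-cKO libraries and at 23.4, 23.8, 15.8 and 17.2 CPM in labelled-control libraries. The labelled controls fell into a higher and a lower pair, and the lower pair lay within the labelled-cKO range. The Foxd1 log2 fold change was -0.34 with an SE of 0.13 and 95% limits between -0.61 and -0.06 (edgeR adjusted p = 0.119; exact permutation p = 0.2). Without labelled-control replicate 3 it passed at -0.43 (edgeR adjusted p = 0.0422), without labelled-control replicate 2 it was -0.24, and the 17 alternatives spanned adjusted p values of 0.0305 to 0.512.

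Per unit of length, Tbx2 and Vax2 were the most abundant factors and Vax1 the least. The mean FPKM in labelled-cKO libraries was 28.2 ± 2.45 for Tbx2, 23.9 ± 4.06 for Vax2, 9.01 ± 1.47 for Tbx3, 6.45 ± 0.813 for Foxd1, 4.39 ± 0.974 for Tbx5 and 1.64 ± 0.0522 for Vax1 (SD, n = 4). In labelled-control libraries the order was Vax2 at 28.6 ± 5.31, Tbx2 at 28.1 ± 3.82, Foxd1 at 8.07 ± 1.72, Tbx3 at 7.16 ± 0.995, Tbx5 at 3.04 ± 0.443 and Vax1 at 1.03 ± 0.218. Tbx2 and Vax2 overlapped in both groups, as did Foxd1 and Tbx3, and in the labelled-cKO libraries the highest Tbx5 value also reached into the Foxd1 range. The gene length implied by the authors' FPKM was 2463 bases for Foxd1 and 2040 for Vax1, whereas the exon union in GENCODE M21 is 5064 and 1117, so the order rests on the authors' gene models.

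**Figure D2:**
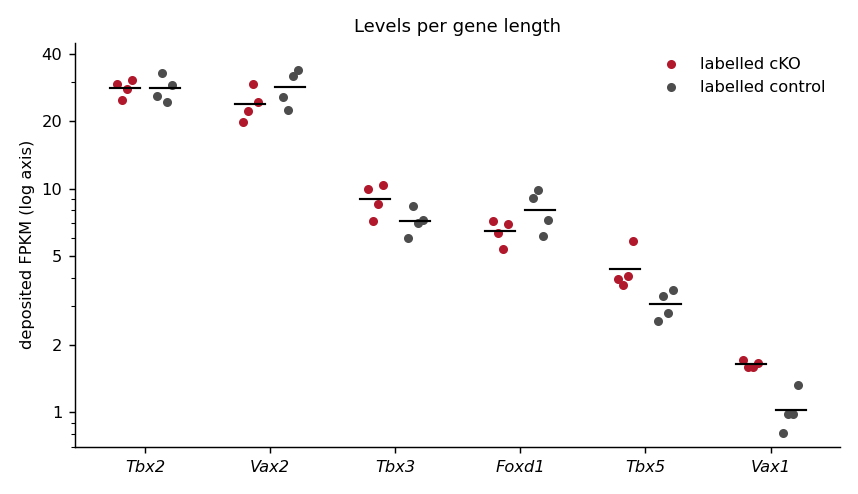
Deposited FPKM (log axis) of the 6 factors in each library, labelled cKO left of labelled control for each gene; points are libraries and bars group means (n = 4). Tbx2 and Vax2 lie between 19.8 and 33.9, and Vax1 lies between 0.806 and 1.71.

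The ratio of summed dorsal to summed ventral factors did not separate the groups. Summed FPKM of the 3 T-box genes divided by that of Vax1 and Vax2 was 2.02, 1.51, 1.31 and 1.80 in labelled-cKO libraries and 1.29, 1.91, 1.03 and 1.13 in labelled-control libraries. Labelled-control replicate 2 was higher than 3 of the 4 labelled-cKO libraries. Most of these sums is Tbx2 and Vax2, whose own ratio was 1.21 ± 0.226 in labelled-cKO and 1.02 ± 0.313 in labelled-control libraries. The summed ratio therefore says little of Tbx5 and Vax1. The mean of the summed ratio was 1.66 ± 0.313 in labelled-cKO and 1.34 ± 0.391 in labelled-control libraries (SD, n = 4 each). On the log2 scale they differed by 0.33, with a pooled SD of 0.34 between libraries of a group, and by 0.55 with the male labelled-cKO libraries alone. The difference was 0.51 without labelled-control replicate 2 and 0.22 without labelled-control replicate 3. Within the T-box genes, the ratio of Tbx5 to Tbx2 was 0.134 to 0.190 in labelled-cKO and 0.0995 to 0.121 in labelled-control libraries, without overlap. The ratio of Tbx3 to Tbx2 was 0.317 ± 0.0257 in labelled-cKO and 0.256 ± 0.0227 in labelled-control libraries, also without overlap. Of 7 such ratios computed, these and that of Vax1 to Vax2 kept the groups apart and the other 4 overlapped. They were chosen with the genes' values known and are given without a test.

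**Figure D3:**
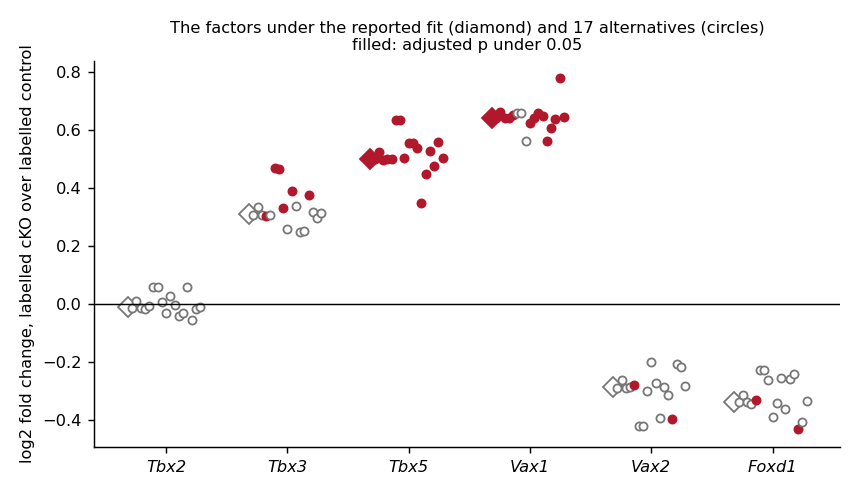
Log2 fold change (labelled cKO over labelled control) of each factor as reported (diamond) and under 17 alternatives (circles), filled where the adjusted p was under 0.05. Tbx5 is filled throughout, Vax1 in 14 of 17 alternatives, Tbx3 in 6, Vax2 and Foxd1 in 2 each and Tbx2 in none.

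The noncoding partners of the factors differed from gene to gene. Vax2os (ENSMUSG00000085794, chromosome 6, 83692806 to 83712201, minus strand), an antisense gene that starts within Vax2, stood at 4.94, 6.34, 6.23 and 5.56 CPM in labelled-cKO libraries against 7.41, 6.35, 8.91 and 10.2 CPM in labelled-control libraries, and fell by 0.52 on the log2 scale (SE 0.14, edgeR adjusted p = 0.0278). Labelled-control replicate 2 lay just above the highest labelled-cKO library, and the call ended in 4 of 17 alternatives (adjusted p 0.00748 to 0.109), each without a single library: labelled-cKO replicate 1 (-0.45) or 4 (-0.51), or labelled-control replicate 3 (-0.49) or 4 (-0.39). No exon bases of Vax2os and Vax2 overlap in GENCODE M21, and a second identifier with the same symbol was at -0.52 (edgeR adjusted p = 0.102). Tbx3os1, which shares 115 exon bases with Tbx3 on the opposite strand, was at 1.93 ± 0.276 CPM in labelled-cKO and 1.46 ± 0.305 CPM in labelled-control libraries (log2 0.42, edgeR adjusted p = 0.235). The sources used here do not say whether strand was used in counting, so reads in those bases cannot be assigned to either gene. Both antisense genes are named after their values were seen.

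Of the 10 nearest measured genes beside the factors that are not factors themselves, 9 were tested, with 1 higher, 1 lower and 7 not called. Among all genes tested, 8.35% were higher and 3.46% lower. The lower neighbour was Brip1, a DNA repair helicase gene 216.2 kb from Tbx2, at 57.4 ± 1.54 CPM in labelled-cKO and 66.9 ± 2.05 CPM in labelled-control libraries (SD, n = 4 each; log2 -0.22, edgeR adjusted p = 0.00939; call lost with library size alone, adjusted p = 0.0767, and without the lens-count pair, 0.0543). The higher neighbour was 4930506M07Rik, 90.1 kb from Vax1, at 66.1 ± 5.03 CPM in labelled-cKO and 45.1 ± 3.16 CPM in labelled-control libraries (log2 0.55, edgeR adjusted p = 7.36e-05). Slc18a2, on the other side of Vax1 at 90.8 kb, was not called. The gene 2610027K06Rik starts 328 bases from Tbx2 on the opposite strand and was at 3.36 ± 0.534 CPM in labelled-cKO and 4.47 ± 0.403 CPM in labelled-control libraries (log2 -0.41, edgeR adjusted p = 0.0829; -0.52 and 0.0362 without labelled-cKO replicate 1). Rbm19, an RNA-binding protein gene beyond Tbx5, was not called.

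Other genes of the axis pathways were read from 5 lists with 47 genes, of which 43 were tested. In the labelled-cKO libraries 9 of the 43 were higher, 5 lower and 29 not called, that is 32.6% called where 11.8% of all genes were. The lists were chosen with earlier results of these data known, so the difference between these shares is not a test. The 9 higher genes include Aldh1a2, which passed the filter through its labelled-cKO counts. Their median log2 fold change was -0.02.

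Upstream, the BMP ligand gene Bmp7 was called higher in the labelled-cKO libraries, and the hedgehog effector genes Gli1 and Gli3 were called lower. Of 8 tested BMP-side genes, 1 was higher and 7 not called (median -0.01), where 8.35% of all genes were higher. The median over all genes was also -0.01. The called gene was the ligand gene Bmp7, at 8.93 ± 1.075 CPM in labelled-cKO and 5.94 ± 0.513 CPM in labelled-control libraries (log2 0.58, edgeR adjusted p = 0.00272), a call that ended in the male libraries (0.45, 0.0547). The dorsal ligand gene Bmp4 was low, at 0.591, 1.25, 0.787 and 1.61 CPM in labelled-cKO libraries and 0.449, 0.262, 0.351 and 0.780 CPM in labelled-control libraries (log2 1.13 with an SE of 0.39, edgeR adjusted p = 0.0824). The Bmp4 log2 fold change passed without labelled-cKO replicate 1 (1.35, edgeR adjusted p = 0.0368) and without labelled-control replicate 4 (1.56, 0.0398). Gdf6 encodes another dorsal BMP ligand, and its log2 fold change was -0.34 (edgeR adjusted p = 0.159), or -0.47 without labelled-cKO replicate 4 (0.0378). The Gdf6 log2 fold change was -0.21 without labelled-cKO replicate 2 and -0.11 in the male libraries. Msx1, a BMP-responsive homeobox gene below the filter, had 41, 30, 18 and 9 counts in labelled-cKO and 8, 3, 3 and 3 in labelled-control libraries.

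Of 10 tested genes of the hedgehog pathway and of ventral BMP modulators, 0 were higher, 2 lower and 8 not called (median -0.16). Over all genes tested, 8.35% were higher and 3.46% lower. Gli1, a transcriptional target and effector of hedgehog signalling, was at 23.9, 18.9, 26.0 and 28.6 CPM in labelled-cKO libraries and 29.5, 34.5, 32.5 and 35.5 CPM in labelled-control libraries. The groups were separate, and Gli1 fell by 0.44 on the log2 scale (SE 0.10, edgeR adjusted p = 0.00937), a call lost with sex as a covariate (-0.34, 0.112). Gli3, which acts mainly as a repressor, fell by 0.21 (edgeR adjusted p = 0.0172), a call lost in 6 of 17 alternatives, over which adjusted p ran from 0.00487 to 0.127 and among which are labelled-cKO replicate 3 left out (-0.19) and labelled-control replicate 3 or 4 left out (-0.19 and -0.20). The other effector Gli2 was at -0.21 (edgeR adjusted p = 0.126) and the decoy receptor gene Hhip at -0.20 (0.122). They passed without labelled-cKO replicate 4 (Gli2 at -0.30, 0.0146) or 1 (Hhip at -0.27, 0.0356). The Gli2 log2 fold change was -0.14 without labelled-cKO replicate 2, -0.12 without the lens-count pair and -0.07 in the male libraries. The receptor gene Ptch1 was at -0.12 (0.182) and the transducer gene Smo at -0.09 (0.170). Over the 17 alternatives Ptch1 ranged from -0.15 to -0.05 and Smo from -0.11 to -0.07.

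Of 6 retinoic acid enzyme genes, 5 were called, with 4 higher and 1 lower (median 0.76), where 8.35% of all genes were higher and 3.46% lower. This list too was chosen with earlier results known, and its 4 higher genes include Aldh1a2, so its share called is not a test. Aldh1a3, the ventral synthesis enzyme, was at 146, 134, 146 and 118 CPM in labelled-cKO libraries and 178, 151, 208 and 209 CPM in labelled-control libraries. It fell by 0.46 on the log2 scale (SE 0.09, edgeR adjusted p = 0.00397), with no overlap between the groups. Aldh1a1, the dorsal synthesis enzyme, stood at 255, 268, 198 and 222 CPM in labelled-cKO libraries and 181, 220, 192 and 175 CPM in labelled-control libraries. Its groups overlapped, and its rise of 0.29 (SE 0.09, edgeR adjusted p = 0.0407) was lost in 7 of 17 alternatives, down to 0.20 (0.226) without the lens-count pair; it was 0.26, 0.23, 0.27, 0.29 and 0.25 with labelled-cKO replicate 1 or 2 or labelled-control replicate 1, 3 or 4 left out. Cyp26a1, which breaks down retinoic acid in the band between the dorsal and ventral domains, was at 55.3 ± 4.14 CPM in labelled-cKO and 30.6 ± 6.09 CPM in labelled-control libraries (log2 0.86, SE 0.11, edgeR adjusted p = 8.80e-05). Cyp1b1, a cytochrome P450 gene whose chick counterpart can make retinoic acid, was at 108 ± 9.67 CPM in labelled-cKO and 54.4 ± 6.04 CPM in labelled-control libraries (edgeR adjusted p = 1.09e-06, log2 1.00, SE 0.08). Aldh1a2, a synthesis enzyme of mesenchyme and early eye, passed the filter through its labelled-cKO counts, with 6.25 ± 0.987 CPM in labelled-cKO and 0.191 ± 0.163 CPM in labelled-control libraries (edgeR adjusted p = 1.18e-07, log2 4.93, SE 0.31). The remaining enzyme gene, Cyp26b1, was at log2 0.67 (edgeR adjusted p = 0.241), at 0.43 without labelled-control replicate 2 and at 1.05 without labelled-control replicate 4.

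**Figure D4:**
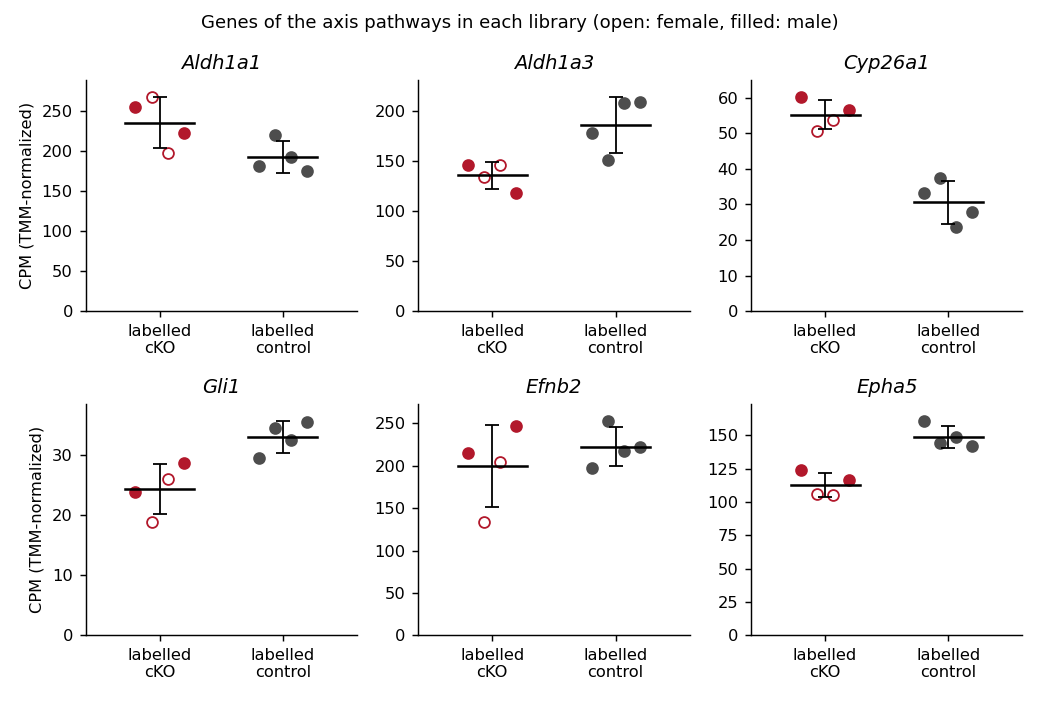
CPM of Aldh1a1, Aldh1a3, Cyp26a1, Gli1, Efnb2 and Epha5 in each library, labelled cKO left of labelled control; lines are means with SD bars (n = 4), open points female and filled points male embryos. The groups are separate for Aldh1a3, Cyp26a1, Gli1 and Epha5 and overlap for Aldh1a1 and Efnb2.

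Downstream on the dorsoventral axis, 1 of 7 ephrin-B and EphB genes was higher and 6 were not called (median -0.07). The share of all genes called higher was 8.35%. Efnb2, the dorsal ephrin-B gene regulated by Tbx5 and Vax2, was at 215, 133, 204 and 247 CPM in labelled-cKO libraries and 198, 252, 217 and 222 CPM in labelled-control libraries. Labelled-cKO replicate 2 was far below the rest, and the log2 fold change of -0.15 (95% limits -0.44 to 0.13, edgeR adjusted p = 0.546) turned to 0.05 in the male libraries. The Efnb2 log2 fold change was -0.0036 without that library, -0.27 without labelled-cKO replicate 4 and -0.09 without labelled-control replicate 2. The called gene was the receptor gene Ephb1, at log2 0.19 (edgeR adjusted p = 0.0485), a call lost in 11 of 17 alternatives (adjusted p 0.0190 to 0.148), among them with 7 of the 8 libraries left out in turn, at 0.16 to 0.21. The receptor gene Ephb3 was at 0.28 (edgeR adjusted p = 0.0937), and at 0.18 without labelled-control replicate 2. The ligand gene Efnb1 was at -0.11 (edgeR adjusted p = 0.422), at -0.04 without labelled-cKO replicate 2 and at -0.07 without labelled-control replicate 1.

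On the nasotemporal axis, the list was again chosen with earlier results known, and 8.35% of all genes were higher and 3.46% lower. Of its 12 tested genes, 3 were higher, 2 lower and 7 not called (median 0.0058). Both lower genes encode receptors of the EphA class: Epha6 was at 12.4 ± 2.54 CPM in labelled-cKO and 23.0 ± 3.03 CPM in labelled-control libraries (log2 -0.89, SE 0.13, edgeR adjusted p = 0.000213), and Epha5 at 113 ± 8.96 CPM in labelled-cKO and 149 ± 8.34 CPM in labelled-control libraries (log2 -0.39, SE 0.06, edgeR adjusted p = 0.000311). The higher genes were the receptor gene Epha4 (log2 0.36, edgeR adjusted p = 0.00502; 0.30 and 0.0595 with sex as a covariate) and the ligand genes Efna1 (0.95, 0.00253) and Efna3 (0.51, 0.00293; 0.43 and 0.0532 in male libraries). Both calls of lower genes held in all 17 alternatives.

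**Figure D5:**
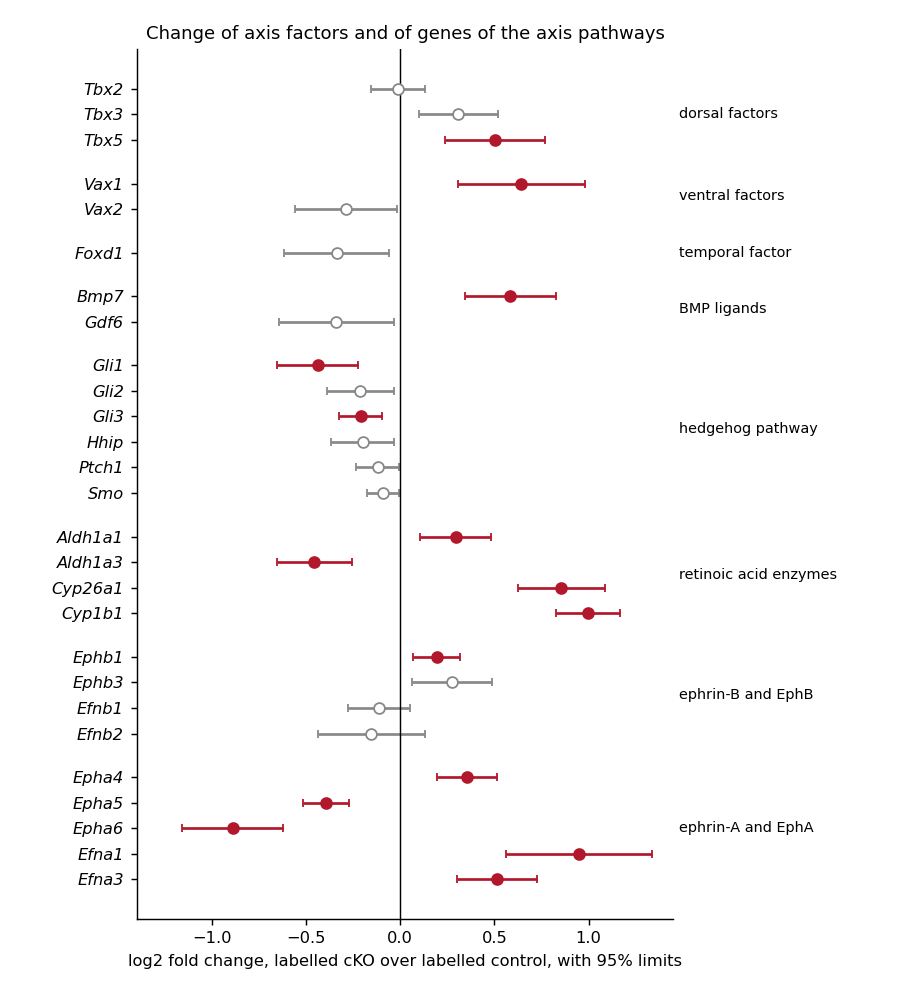
Log2 fold change (labelled cKO over labelled control) with 95% limits for the 6 factors and for named pathway genes, red and filled where called. Dorsal and ventral factors lie on both sides of 0, and the 6 hedgehog pathway genes shown all lie at or below -0.09.

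Among relatives of the factors, 7 of 23 listed T-box, Pax and Foxd genes were tested, with 3 higher, 1 lower and 3 not called. The shares over all genes were 8.35% higher and 3.46% lower, and this list was also chosen with earlier results known. The 3 higher relatives were low in the labelled controls and passed the filter largely through their labelled-cKO counts. Tbr1, a T-box gene of ganglion cells, was at 4.88 ± 0.453 CPM in labelled-cKO and 0.567 ± 0.146 CPM in labelled-control libraries. Tbx15, a T-box gene of mesenchyme, was at 2.39 ± 0.363 CPM in labelled-cKO and 0.386 ± 0.208 CPM in labelled-control libraries. Pax8, a Pax2 relative of kidney and thyroid, was at 2.497 ± 0.789 CPM in labelled-cKO and 0.0816 ± 0.0606 CPM in labelled-control libraries. Eomes, a T-box gene of ganglion cells, fell by 0.67 on the log2 scale (edgeR adjusted p = 5.68e-05). Each of the 6 factors, by contrast, had at least 23 counts in every labelled-control library.

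Markers of other cell types differed between the groups in part. The shares over all genes tested were 8.35% higher and 3.46% lower. Of 7 tested periocular mesenchyme markers, 2 were higher and 5 not called. Those higher were the transcription factor genes Twist1 and Foxc1, at log2 3.83 and 2.63. Both passed the filter through their labelled-cKO counts: Twist1 was at 1.17 to 1.77 CPM in labelled-cKO and 0 to 0.197 CPM in labelled-control libraries, and Foxc1 was at 1.57 to 2.51 CPM in labelled-cKO and 0.0701 to 0.655 CPM in labelled-control libraries, so their folds are imprecise. Twist1 had no counts in labelled-control replicate 1. The collagen genes of the list, abundant in mesenchyme, were not called, but their estimates were imprecise. Col3a1 was at log2 0.72 (95% limits -0.27 to 1.715), Col1a2 at 0.21 (-0.49 to 0.90) and Col1a1 at 0.17 (-0.84 to 1.19). The median log2 fold change of the mesenchyme list was 0.66. The summed level of that list was 13.7 to 65.3 CPM in labelled-cKO and 14.99 to 46.8 CPM in labelled-control libraries. Of 5 tested optic nerve head and astrocyte markers, 2 were higher, Pdgfra (log2 1.00) and Ntn1 (1.19), and the list summed to 48.4 to 58.0 CPM in labelled-cKO and 40.9 to 46.0 CPM in labelled-control libraries, without overlap. The 5 tested pigment epithelium markers were not called and summed to 10.8 to 23.0 CPM in labelled-cKO and 10.2 to 36.1 CPM in labelled-control libraries. Of the tested endothelial markers, Kdr, which retinal progenitors also express, fell by 0.24 on the log2 scale (edgeR adjusted p = 0.00697; 0.0868 in the male libraries), and Pecam1 was not called. Nearly all of that list's sum, 252 to 303 CPM in labelled-cKO and 321 to 348 CPM in labelled-control libraries, was Kdr, at 281 ± 17.2 CPM in labelled-cKO and 332 ± 12.96 CPM in labelled-control libraries. Pecam1, the more specific marker, was at 0.598 ± 0.291 CPM in labelled-cKO and 0.524 ± 0.216 CPM in labelled-control libraries. The 2 lens and 5 erythroid markers tested were not called. Their sums were 3.38 to 10.7 and 93.7 to 881 CPM in labelled-cKO libraries, against 2.48 to 14.1 and 153 to 1315 CPM in labelled-control libraries. The 6 retina markers were not called, and their list summed to 1371 to 1469 CPM in labelled-cKO and 1420 to 1564 CPM in labelled-control libraries. Pax6 and Lhx2 were lower in labelled-cKO libraries without overlap, as were 6.21% of all genes. Rax was at log2 -0.16 (edgeR adjusted p = 0.0543) and Sox2 at 0.03, and the median of the retina list was -0.07. The part of these cell types in the values of Vax1, which the optic stalk expresses, of Foxd1 and of Aldh1a2 was not tested.

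The genes most like each factor over the 8 libraries were found by the root mean square difference of mean-centred log2 CPM. The closest to Tbx5 were Elf4 (0.0887) and Foxo6 (0.108), and to Tbx3 Zbtb7c (0.0848) and Ccl25 (0.0940). Tbx2 lay closest to Mmab (0.0408) and Opa3 (0.0434), and Vax1 to Dcst1 (0.0761) and Ybx2 (0.104). The nearest genes to Vax2 were Gm13375 (0.108) and Gm16010 (0.111), and to Foxd1 Agbl4 (0.108) and Pole (0.115). None of the 6 factors was among the nearest genes of another.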

How the data were processed

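Peripheral retina was measured by RNA sequencing in 8 libraries. The submitters' processing notes name Novoalign 2.08.01, DESeq2 and the build mm10. How reads were counted, on which annotation and with which filter, the sources used here do not say. The authors' count columns hold whole numbers per gene, not normalized, with a lowest row sum of 18. The deposited FPKM values, scaled by the authors for gene length and library size, served for levels between genes. The authors' log2 ratio column and their adjusted p score column, whose scale is unnamed in the file, were not used.

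Counts were tested with edgeR 4.0.16 (R 4.3.3): TMM normalization, filterByExpr at a minimum count of 10, glmQLFit and glmQLFTest on 4 labelled-cKO against 4 labelled-control libraries without covariates, and Benjamini-Hochberg adjustment over the 15014 genes tested, which hold 99.9% of counts. Standard errors follow from the F statistic, and 95% limits use its degrees of freedom. Counts of 3 correspond to 0.163 to 0.214 CPM. List sums divide by total counts. Exact permutation tests used log2 CPM with a prior count of 2. DESeq2 1.42.0, other scalings, no filter, a replicate block, sex, male libraries, the libraries with lens counts and each library left out were tried as alternatives, and leaving out mitochondrial genes was added after seeing the data.

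The members and lists were chosen with earlier results of these data known. Genes named are the members, called list genes, up to 4 uncalled genes of smallest p per list, the nearest measured neighbours, and the 2 genes nearest in pattern to each member; not all were printed, and some genes of the lists are not reported here. Where a symbol occurred more than once, the row with most counts was used. Coordinates came from GENCODE M21 (mm10) by identifier, which matched 15833 and missed 263.

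Within groups, libraries differed by a chi-square of 4.81 to 25.2 per degree of freedom, more than counting noise, so no library was taken for a second copy of another. Mitochondrial rRNA made up 8.19% to 14.0% of counts.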

Additional observations from a re-analysis of the deposited data

Results flagged for a closer look

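In groups of 4 libraries, a library was singled out when its gap to the next exceeded Dixon's 95% critical share of the group's range, which chance gives in about 1 in 20 groups. Of 96 groups examined, 5 met it. Tbx5 was at 22.3 CPM in labelled-cKO replicate 4, with the others at 15.04 to 15.7 CPM. Aldh1a2 was at 7.73 CPM in labelled-cKO replicate 2, with the others at 5.68 to 5.84 CPM. Efna3 was at 10.9 CPM in labelled-cKO replicate 1, against 13.4 to 13.8 CPM in the rest of its group. Bmp7 was at 5.17 CPM in labelled-control replicate 2, with the others at 6.13 to 6.24 CPM. Gli2 was at 40.4 CPM in labelled-control replicate 1, with the others at 37.5 to 37.9 CPM.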

How the results depend on the processing

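The counts over all genes depended on which libraries and terms entered. Against 1253 higher and 520 lower genes, sex as a covariate gave 795 and 246, the male libraries 800 and 255, library size alone 1289 and 273 (82.5% of calls higher, against 70.7%), and leaving out the libraries with lens counts 996 and 323. Leaving out each library in turn gave 1008 to 1233 higher and 329 (without labelled-control replicate 3) to 667 lower genes. Signalling and guidance genes called lower were 5, with 3 under sex as a covariate and 4 to 8 (without labelled-cKO replicate 4) with a library left out. Factors called lower were 0, and 0 to 1 (without labelled-control replicate 2 or 3) with a library left out.

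The Tbx2 log2 fold change turned sign under library size alone (0.0091), sex as a covariate (0.0589), the male libraries (0.0586) and without the libraries with lens counts (0.0072), and ranged from -0.0568 to 0.0567 with a library left out (positive without labelled-cKO replicate 2 or labelled-control replicate 2). Tbx3 passed with DESeq2 (0.30), sex as a covariate (0.47), the male libraries (0.47) and without the libraries with lens counts (0.33), and ranged from 0.25 to 0.39 with a library left out. Vax1 no longer passed with sex as a covariate (0.66), in the male libraries (0.66) and without the libraries with lens counts (0.56). With a library left out, Vax2 ran from -0.40 to -0.20 and Foxd1 from -0.43 to -0.24. Tbx5 passed throughout. Efnb2 turned to 0.0535 with sex as a covariate and 0.0533 in the male libraries. The cause of these shifts was not tested.

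The labels do not say whether the replicate numbers shared by the groups pair the libraries. Same-number correlations of deviations from the group mean were -0.23 to 0.18 over 4 pairs, and 0 of the 4 labelled-cKO libraries correlated best with its own number. With so few libraries these correlations cannot decide whether the libraries are paired. With a replicate block, 1179 genes were higher and 497 lower, Vax2 (-0.28, edgeR adjusted p = 0.0483) and Foxd1 (-0.33, 0.0305) passed, and 2 factors were called lower.

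For 41 other named genes, 648 of 697 values under an alternative kept direction and side of the threshold, 36 lost a call, 11 gained 1 and 2 changed sign. The dorsal to ventral log2 difference ran from 0.22 to 0.55, moving from 0.33 by less than the spread between libraries. The low counts of Vax1 and Bmp4 limit their precision.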
